A study of Sus scrofa with 8 samples.

Results

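Sarcosine, methionine and one-carbon metabolism was followed through 9 genes chosen by name, namely SARDH, DMGDH, PIPOX, GNMT, BHMT, MAT1A, AHCY, CBS and SHMT1. The mRNA table lists 21607 Ensembl identifiers, of which 11654 could be paired with a symbol, and 5 of the 9 genes had a row under the identifier paired with their symbol: SARDH (ENSSSCG00000005740), DMGDH (ENSSSCG00000014110), BHMT (ENSSSCG00000014108), MAT1A (ENSSSCG00000010337) and AHCY (ENSSSCG00000007278). PIPOX, GNMT, CBS and SHMT1 were not analysed here. All 5 genes with a row were above 0 in each library and passed the filter on low values. Livers of 2 young sows aged 180 days (young liver, YL) and 2 old sows aged 8 years (old liver, OL) were compared, with 1 rRNA-depleted RNA-seq library per sow. The libraries are called YL1, YL2, OL1 and OL2 after the replicate numbers of their labels. All 4 sows belonged to the Chinese Yana breed, were healthy and unrelated, and were kept without feed overnight before slaughter. The young sows had not farrowed, and the old sows had been retired after years of litters, so age and reproductive history cannot be told apart. The labels name no treatment, genotype or batch.

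Methionine is joined to ATP to make S-adenosylmethionine, the methyl donor of the cell, and the homocysteine left after methyl transfer is either methylated again or passed on to cysteine. In liver, betaine derived from choline gives a methyl group to homocysteine and becomes dimethylglycine. Dimethylglycine and then sarcosine are demethylated in mitochondria to glycine, and the carbon units released are taken up by folate. The liver holds most of these steps, and hepatocytes are the main cells that carry them out.

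The values are reads of a gene scaled to a common library total (CPM), which carry no correction for gene length, so each gene was compared with itself across libraries and not with other genes. The libraries held between 28324675 and 52207649 reads on listed mRNAs and lncRNAs, with fewer in the old than in the young livers. Of 10 hepatocyte markers, 9 had an identifier and were above 0 in all 4 libraries. Their summed level was 87283 and 95255 CPM in YL and 62034 and 66101 CPM in OL. Of the 9, 6 were lower and 3 (APOA1, FGB and AMBP) higher on average in old livers by CPM, and 6 overlapped between the age groups. Over all mRNAs tested, OL1 lay below both young livers for 35.4% and above both for 35.5%. For OL2 these shares were 35.5% and 34.7%. Old replicate 1 stood apart from the other 3 libraries in its interferon-stimulated genes. In it, 9 interferon-stimulated genes with an identifier (of 13 listed) summed to 1598 CPM, against 24.3 to 36.9 CPM in YL and 30.0 CPM in OL2. Results are therefore also given without this library.

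SARDH, the mitochondrial sarcosine dehydrogenase that turns sarcosine into glycine, was higher in both old livers. Its level was 2.79 CPM in YL1, 2.78 in YL2, 6.97 in OL1 and 21.2 in OL2, from 256, 241, 429 and 1524 reads. The young livers were nearly equal, the old livers were both above them, and OL2 was 3.04 times as high as OL1. The 95% Poisson intervals, which cover counting error only since PCR copies are not independent molecules, were 2.46 to 3.15 and 2.44 to 3.16 CPM for the young livers, 6.33 to 7.66 for OL1 and 20.2 to 22.3 for OL2. The mean was 14.1 ± 10.1 CPM (SD, n = 2) in OL and 2.79 ± 0.0021 CPM (SD, n = 2) in YL, a ratio of 5.06.

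On log2(CPM + 1), a scale that understates the change of genes with low values, the fold change of SARDH between old and young livers was 1.81 (standard error 0.59). In limma this had an unadjusted p-value of 0.0484 and an adjusted p-value of 0.314 over the 16898 mRNAs tested, so SARDH did not pass. To pass, a gene needed both an absolute log2 fold change above 1 and an adjusted p-value below 0.05. No mRNA passed in limma (0.00% higher and 0.00% lower), whereas 1145 higher (6.78%) and 1509 lower mRNAs (8.93%) had an unadjusted p-value below 0.05. The fold change of SARDH lay above that of 98.8% of the tested mRNAs, and of 97.9% of the 9790 with a mean of at least 1 CPM. The classic exact test of edgeR on recovered reads, which is the test used in the study, gave SARDH a log2 fold change of 2.54 and an adjusted p-value of 0.0385, where 2.04% of the mRNAs were called higher and 0.320% lower. DESeq2 also called it (2.52, adjusted p = 0.00854, with 4.04% of the mRNAs called higher and 1.17% lower), and the quasi-likelihood test of edgeR did not (adjusted p = 0.276, 0.00% called). Over the alternatives that kept every library, the adjusted p-value of SARDH lay between 0.00854 (DESeq2) and 0.348 (limma with a replicate block). Without OL1 the log2 fold change on log2(CPM + 1) was 2.55, and without OL2 it was 1.07. The study singled out SARDH from these same libraries, so its place among the 9 genes is not independent of its values. With 2 livers per age group, an exact permutation test of a single gene cannot give a two-sided p-value below 0.333.

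DMGDH, the dimethylglycine dehydrogenase that acts just before SARDH, and BHMT, which moves the methyl group of betaine to homocysteine and yields dimethylglycine, were lower in OL1 and near the young level in OL2. DMGDH had 45.2 and 47.7 CPM in YL (4151 and 4132 reads), 19.1 in OL1 (1173 reads) and 44.7 in OL2 (3214 reads). Old replicate 2 was thus just below the lower young liver, and the age groups did not overlap by this narrow margin. BHMT had 569 and 673 CPM in YL (52230 and 58225 reads), 196 in OL1 (12088 reads) and 572 in OL2 (41087 reads). The value of OL2 fell between those of the young livers, while OL1 was lower than the young mean by a factor of 3.16. The log2 fold change was -0.65 for DMGDH (standard error 0.48, adjusted p = 0.60, limma) and -0.88 for BHMT (standard error 0.62, adjusted p = 0.582, limma). Without OL1 these values were -0.05 and -0.11, and without OL2 they were -1.24 and -1.65. In the RefSeq gene order of Sscrofa11.1, DMGDH, BHMT2 and BHMT are neighbours. BHMT2 is a close relative of BHMT that was not analysed here, and how reads common to both were counted is not given in the sources used here, so the BHMT values may include reads of BHMT2.

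**Figure D1:**
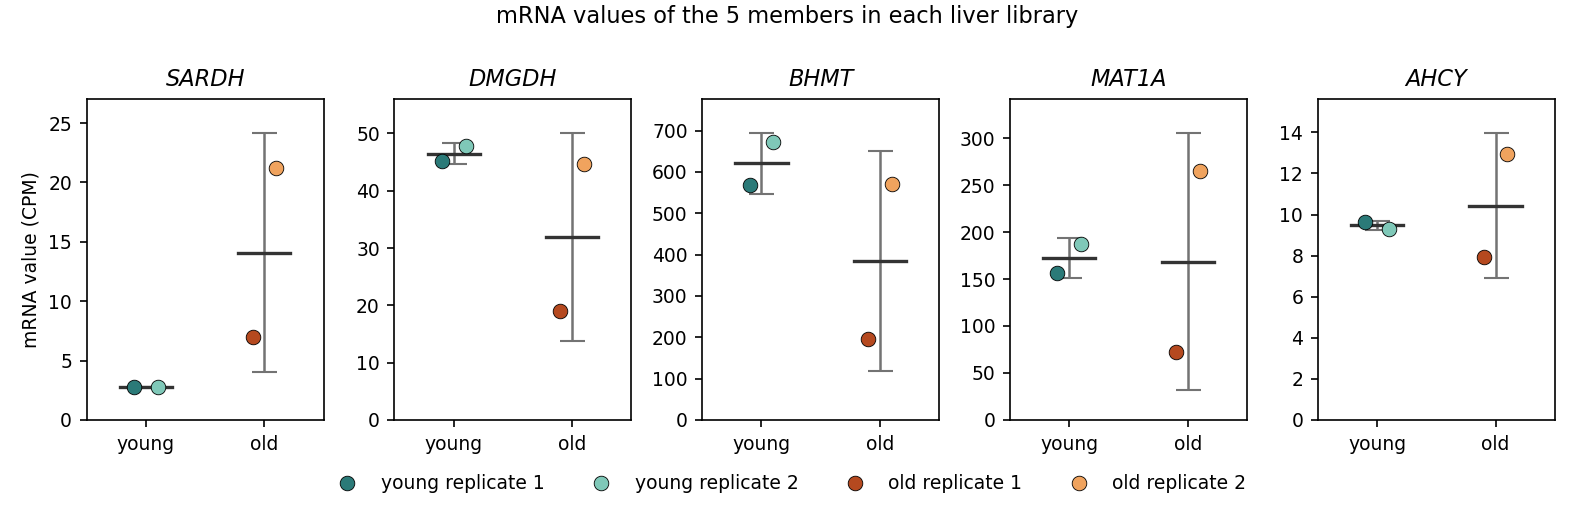
Values of the 5 genes in CPM (vertical axes, each starting at 0) in the 2 young and 2 old liver libraries. Points are libraries, horizontal bars are group means and error bars are SD. SARDH sits at 2.79 and 2.78 CPM in YL and at 6.97 and 21.2 CPM in OL, while DMGDH, BHMT and MAT1A are low in OL1 and near or above the young livers in OL2.

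MAT1A, the liver form of methionine adenosyltransferase that makes S-adenosylmethionine, was the one of the 5 genes that differed most between the old livers. It had 157 and 187 CPM in YL (14404 and 16186 reads), 71.9 in OL1 (4422 reads) and 265 in OL2 (19056 reads). The young livers lay between the old ones, and the old livers differed by a factor of 3.69. In limma the age difference was -0.31 on the log2 scale, with a standard error of 0.75, a 95% confidence interval from -2.58 to 1.96 and an adjusted p-value of 0.891. Without OL1 it was 0.63, and without OL2 it was -1.24, so the direction depended on which old liver was used. The direction was also positive in the exact test of edgeR on recovered reads (0.17).

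AHCY, which splits S-adenosylhomocysteine into adenosine and homocysteine, differed least between the old livers. Its values were 9.64 and 9.30 CPM in YL (885 and 805 reads), 7.93 in OL1 (488 reads) and 12.9 in OL2 (929 reads). The age groups overlapped, with OL1 below and OL2 above both young livers. In limma the log2 fold change was 0.09 with a standard error of 0.27 and an adjusted p-value of 0.916, its 95% confidence interval reached from -0.74 to 0.92, and without OL2 it was -0.23.

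Of the 5 genes, SARDH was the only one whose values were higher in both old livers, and DMGDH the only one lower in both. Over all mRNAs tested, the age groups did not overlap for 24.4% with higher and for 25.0% with lower values in old livers. At an unadjusted p-value under 0.05 in limma, 1 of the 5 genes was higher (6.78% of all mRNAs tested) and 0 were lower (8.93%). In OL1, 4 of the 5 genes lay below both young livers (35.4% of all mRNAs tested) and 1 above both (35.5%). In OL2, 1 lay below both (35.5%) and 3 above both (34.7%). With 1 old library left out, no spread among old livers enters the fit, so only directions on average are given. Without OL2, 1 of the 5 genes was higher and 4 were lower, where 6834 mRNAs were higher and 8679 lower of 15513 tested. Without OL1, 3 of the 5 genes were higher and 2 lower, where 6720 mRNAs were higher and 8758 lower of 15478 tested. The median log2 fold change of the 5 genes was -0.31, beside -0.02 for all mRNAs tested and -0.15 for the 9790 tested mRNAs with a mean of at least 1 CPM. It was 0.41 without OL1 and -1.24 without OL2.

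Each of the 5 genes had similar levels in the young livers and levels further apart in the old ones. On log2(CPM + 1), the difference between the young livers had a median size of 0.08 over the 5 genes, against 0.34 over the mRNAs with a mean of at least 1 CPM. Between the old livers it was 1.48, against 0.40. All 5 genes were higher in OL2 than in OL1, by factors of 1.63 (AHCY) to 3.69 (MAT1A).

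**Figure D2:**
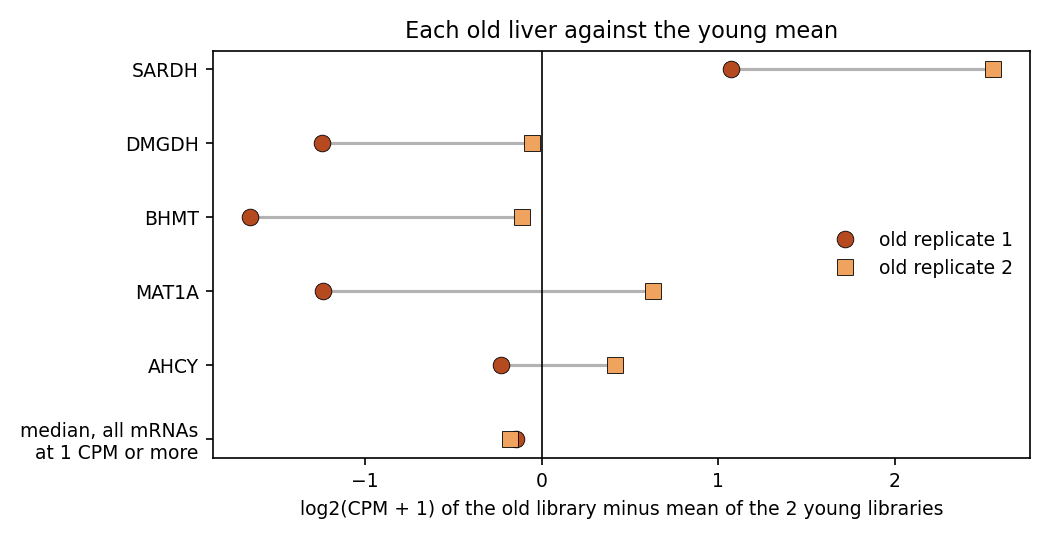
Difference of each old liver from the mean of the 2 young livers (horizontal axis, log2(CPM + 1)) for the 5 genes and for the median of the mRNAs with a mean of at least 1 CPM. Circles are OL1 and squares OL2. SARDH lies at 1.07 and 2.55 and the medians at -0.14 and -0.18, while MAT1A and AHCY fall on both sides of 0.

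SARDH was also set against the other 4 genes within each library, since such a ratio does not depend on the scaling of the library. Relative to BHMT, DMGDH and MAT1A, SARDH differed less between the old livers than it did by itself. Per 1000 CPM of BHMT there were 4.90 and 4.14 CPM of SARDH in the young livers and 35.5 and 37.1 CPM in OL. The old livers thus differed by a factor of 1.05, and the mean ratio was 8.03 times as high in old as in young livers. Per 1000 CPM of DMGDH the values were 61.7 and 58.3 in YL and 366 and 474 in OL, 7.0 times as high. Per 1000 CPM of MAT1A they were 17.8 and 14.9 against 97.0 and 80.0, 5.42 times as high. With AHCY, the gene that differed least between the old livers, the values were 289 and 299 against 879 and 1640.5, 4.28 times as high, and the old livers differed by a factor of 1.87. None of the 4 ratios overlapped between the age groups, but all 4 share the SARDH values, which did not overlap either. They are therefore not separate results. The ratios were formed after the values had been seen, and they were not tested.

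**Figure D3:**
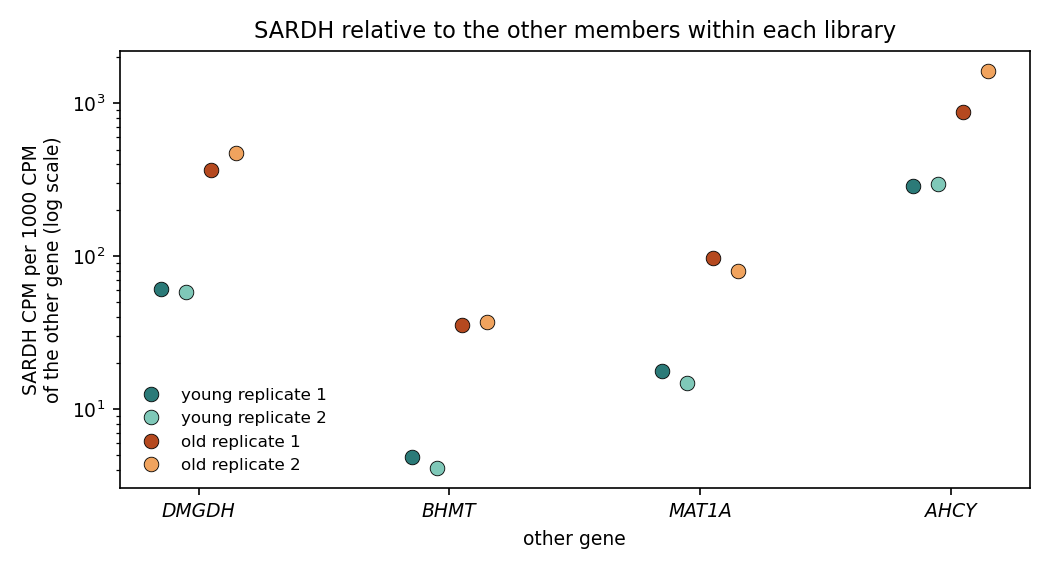
CPM of SARDH per 1000 CPM of each of the other 4 genes (vertical axis, log scale) in the 4 libraries, shown as points. Both old livers lie above both young livers for each gene, and the old livers nearly coincide for BHMT (35.5 and 37.1).

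Of the tested mRNAs with a symbol and a mean of at least 1 CPM (6099 besides SARDH), 3 had the pattern most like that of SARDH over the 4 libraries, measured as the Euclidean distance between centred log2(CPM + 1) values. These were TFF3, a secreted trefoil peptide (distance 0.34), FASN, the fatty acid synthase (0.44), and OVGP1, an oviductal glycoprotein (0.45). FASN had 1.15 and 0.774 CPM in YL and 4.16 and 8.81 CPM in OL. TFF3, listed at 0 in YL1 and YL2, had 0.747 and 5.79 CPM in OL1 and OL2, and OVGP1 had 0 and 0.416 against 1.17 and 4.58 CPM. The lncRNA MSTRG.177174, which the study paired with SARDH, was at 0 in YL1 and YL2 and had 37 and 191 reads (0.601 and 2.66 CPM) in OL1 and OL2. It was therefore also higher in OL2 than in OL1.

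SARDH and DMGDH hand their electrons to the electron transfer flavoprotein, made of the subunits ETFA and ETFB, and from there to its oxidoreductase ETFDH. ETFB was higher and ETFA and ETFDH were lower in old livers. In each the old and young values did not overlap, where 24.4% of all mRNAs tested did so with higher and 25.0% with lower values. ETFB had 73.1 and 68.1 CPM in YL and 218 and 181 in OL. ETFDH had 44.6 and 44.0 CPM in YL and 23.0 and 22.2 in OL. ETFA had 45.2 and 56.9 CPM against 30.1 and 34.1. The old livers were closer to each other here than for any of the 5 genes above. The log2 fold change was 1.48 for ETFB (standard error 0.15), -0.94 for ETFDH (standard error 0.11) and -0.65 for ETFA (standard error 0.18). All 3 had an unadjusted p-value under 0.05 in limma, where 6.78% of all mRNAs tested did so with higher and 8.93% with lower values. None of the 3 passed after adjustment (adjusted p = 0.213, 0.213 and 0.278, limma). DESeq2 on recovered reads called ETFB (1.67, adjusted p = 3.9e-05), among the 4.04% of mRNAs it called higher, whereas neither edgeR test did (exact and quasi-likelihood, adjusted p = 0.147 and 0.276). Per CPM of ETFDH, a ratio also formed after the values had been seen, the CPM of ETFB was 1.64 and 1.55 in YL and 9.46 and 8.15 in OL, 5.52 times as high on average.

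The wider pathway was read from 7 lists of 78 related genes, of which 61 had an identifier and were tested. Of these 61, 20 were higher and 41 lower on average in old livers, where 47.1% of all mRNAs tested were higher and 52.9% lower. The median log2 fold change of the 61 genes was -0.37, and it was -0.27 without YL2, -0.18 without OL1 and -0.50 without OL2. In limma 0 of them passed the threshold after adjustment. At an unadjusted p-value under 0.05, 3 were higher and 10 lower, where 6.78% and 8.93% of all mRNAs tested were. With values scaled to the hepatocyte markers, 6 were higher and 6 lower at this p-value, where 1652 and 757 of 16898 mRNAs were. The split was then 28 higher and 33 lower, while 58.8% of all mRNAs tested were higher. With TMM factors the split was 25 and 36, with 55.0% of all mRNAs higher. The age groups did not overlap for 9 higher and 26 lower genes of the 61, where 24.4% and 25.0% of all mRNAs tested did so.

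Around the methionine cycle, 10 further genes were tested, of which 2 were higher and 8 lower on average. The split was 4 and 6 without OL1, with TMM factors and with the hepatocyte scaling. MAT2A, the methionine adenosyltransferase of most other tissues, had 5.87 and 5.64 CPM in YL and 3.92 and 2.49 CPM in OL (log2 fold change -0.70, adjusted p = 0.305, limma). AHCYL1, a relative of AHCY that regulates calcium channels, had 8.31 and 7.05 against 4.19 and 5.12 CPM (-0.62, adjusted p = 0.271, limma). MTR, the methionine synthase that remethylates homocysteine with methylfolate, had 3.10 and 2.88 against 1.63 and 2.59 CPM (-0.38, adjusted p = 0.491, limma). All 3 were to be named whatever their values, and all 3 were lower in both old livers. Of the 10 genes, 4 were lower with no overlap between the age groups (25.0% of all mRNAs tested). With no overlap, 0 were higher (24.4%), and the other 6 overlapped. Without OL1 the log2 fold change was -0.15 for MTR and -0.95 for MAT2A, and without OL2 it was -0.60 and -0.46. In methionine salvage and polyamine synthesis, 3 of 9 genes were higher and 6 lower on average with the deposited scaling, and 5 were higher and 4 lower with TMM factors. ADI1, an enzyme of the salvage pathway, had 14.6 CPM in each young liver and 22.2 and 33.3 CPM in OL (log2 fold change 0.86, adjusted p = 0.283, limma). APIP, another salvage enzyme, had 14.4 and 17.6 against 9.18 and 10.7 CPM (-0.63, adjusted p = 0.274, limma). That neither gene overlapped between the age groups follows from the rule that named them.

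In the folate cycle, 6 of 12 tested genes were higher and 6 lower on average. FTCD, which passes carbon units from histidine breakdown to folate, was the gene of this list with the smallest p-value. It had 8.02 and 5.88 CPM in YL and 21.2 and 26.0 CPM in OL. Its log2 fold change was 1.63 (standard error 0.22, unadjusted p = 0.0036, adjusted p = 0.213, limma). DESeq2 on recovered reads called FTCD (1.95, adjusted p = 9.4e-05), among the 4.04% of mRNAs it called higher. In edgeR neither the exact nor the quasi-likelihood test called FTCD (adjusted p = 0.0814 and 0.276). SHMT2, the mitochondrial relative of SHMT1, was not analysed here. Of the 8 tested genes of choline and betaine supply, 5 were higher and 3 lower on average. The split was 1 and 7 without OL2, 2 and 6 without YL2, 4 and 4 without YL1 and 6 and 2 without OL1. None of the 8 had an unadjusted p-value under 0.05 in limma, where 6.78% of all mRNAs tested did so with higher and 8.93% with lower values.

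**Figure D4:**
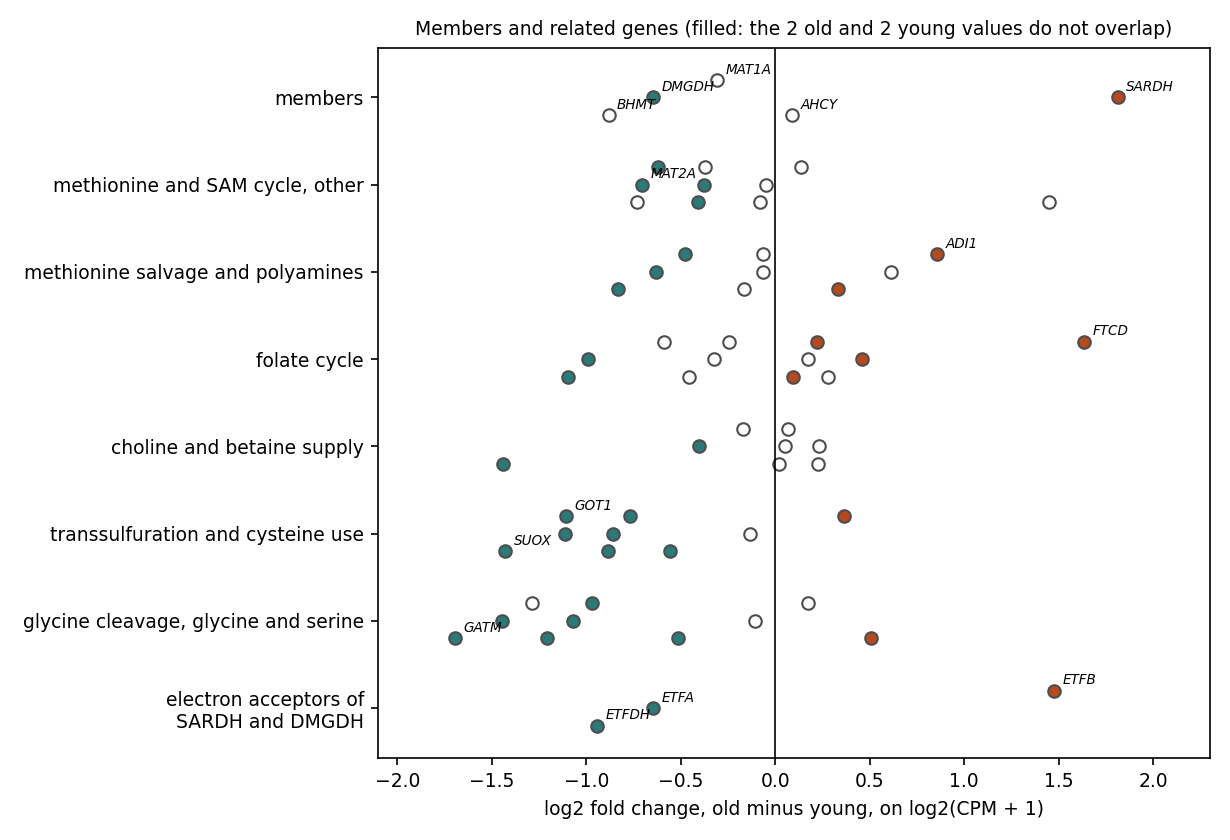
Log2 fold change between old and young livers on log2(CPM + 1) (horizontal axis) for the 5 genes and for 61 related genes in 7 lists. Each point is a gene, filled red or green where both old values lie above or below both young values and open where they overlap. SARDH at 1.81, FTCD at 1.63 and ETFB at 1.48 lie to the right, and most genes of cysteine, glycine and serine metabolism lie to the left.

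The genes that lead homocysteine on to cysteine and use it were mostly lower. Of 9 tested, 8 were lower and 1 higher on average, the median log2 fold change was -0.86, and 7 were lower with no overlap (25.0% of all mRNAs tested). CTH, which makes cysteine from cystathionine, had 232 and 156 CPM in YL, against 96.7 and 128 CPM in OL (log2 fold change -0.77, adjusted p = 0.363, limma). GOT1, the cytosolic aspartate aminotransferase, had 101 and 93.5 against 48.8 and 41.0 CPM (-1.11, adjusted p = 0.213, limma). CSAD, an enzyme of taurine synthesis, had 4.17 and 4.69 against 1.59 and 2.45 CPM (-0.86, adjusted p = 0.254, limma). SUOX, the sulfite oxidase, had 15.3 and 12.0 against 3.01 and 6.32 CPM (-1.43, adjusted p = 0.271, limma). GOT1, CSAD and SUOX were lower in each old liver than in either young liver, which follows from the rule that named them. The median of the list was -0.56 without OL1 and -0.98 without OL2.

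Of 10 tested genes of glycine cleavage and of glycine and serine metabolism, 8 were lower and 2 higher on average. The median log2 fold change was -1.02, and it was -0.16 without OL1 and -1.25 without OL2. DLD, the shared dehydrogenase of the glycine cleavage system, had 8.77 and 8.47 CPM in YL and 2.84 and 4.44 CPM in OL (-1.07, adjusted p = 0.240, limma). GATM, which uses glycine in creatine synthesis, had 70.4 and 99.6 against 19.2 and 33.1 CPM (-1.69, adjusted p = 0.246, limma). DESeq2 on recovered reads called GATM (adjusted p = 0.0433), among the 1.17% of mRNAs it called lower. Both edgeR tests gave GATM an adjusted p-value of 0.282. Both genes were lower in each old liver than in either young liver, which follows from the rule that named them.

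Marker genes of cell types and liver zones were read beside these values. The 5 periportal markers with an identifier, of 6 listed, summed to 1949.5 and 1593.8 CPM in YL, 365 in OL1 and 1113.8 in OL2. In OL1, 4 of the 5 lay below both young livers, as DMGDH, BHMT and MAT1A did. HAL, at 10.4 CPM in OL1, lay between the young values of 10.6 and 2.53 CPM. The pericentral markers (4 of 6) summed to 1892.7 and 2602.9 CPM against 896 and 1501 CPM, and CYP2E1 made up most of each sum. CYP2E1 and CYP1A2 were lower in both old livers, and OAT and SLC1A2 overlapped. Macrophage markers (5 of 8) were all higher on average in old livers, with sums from 232 to 254 CPM in young and from 340 to 375 CPM in old livers. C1QA made up most of each sum, and CSF1R overlapped between the age groups. Endothelial markers (3 of 6) summed to between 26.8 and 30.0 CPM in young livers and to 62.6 and 31.5 CPM in OL1 and OL2. In OL1, PECAM1 (23.8 CPM) and LYVE1 (36.5 CPM) lay above both young livers, and KDR (2.26 CPM) lay below both. T and NK cell markers (3 of 6) summed to 4.95 and 6.41 CPM in YL against 14.8 and 7.615 CPM in OL1 and OL2. Markers of B and plasma cells (3 of 5) reached 12.4 CPM in OL1 and at most 4.505 CPM elsewhere, of which MZB1 alone made up 11.4 CPM in OL1. CD79B was lower in both old livers, and MS4A1 overlapped. Sums of stellate cell and fibroblast markers (5 of 6) ranged from 14.3 to 32.1 CPM in young and from 9.64 to 36.7 CPM in old livers. Those of erythroid markers (4 of 5) ranged from 429 to 622 and from 308 to 407 CPM, and HBB made up most of each. HBB and ALAS2 were lower and HBM was higher in both old livers, and SLC4A1 overlapped. Cholangiocyte markers (3 of 5) stayed at or below 1.27 CPM and the 1 skeletal muscle marker with an identifier (of 7) below 1 CPM. LUM and HBM were each listed at 0 in YL2. With values scaled to the hepatocyte markers, the log2 fold change was 2.06 for SARDH, -0.36 for DMGDH, -0.58 for BHMT, -0.01 for MAT1A and 0.36 for AHCY. In bulk liver, fewer cells of a type and less RNA per cell cannot be told apart, and the part of these markers and of the interferon-stimulated genes in the results was otherwise not tested.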

How the data were processed

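The deposited mRNA and lncRNA tables hold CPM, although the authors call the unit TPM. Per the study's methods and the submitters' processing notes, they came from TopHat2 2.0.14 (alignment to Sscrofa10.2), StringTie 1.2.3 (assembly) and Salmon 0.6.0. Dividing by 1 step per library gave whole reads, within 0.1 read, for at least 99.95% of nonzero values. No gene length therefore enters them, and whole reads were recovered. The libraries were directional, and the strand setting of the counting is not given in the sources used here. MiRNA and circRNA tables were not used.

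Libraries were grouped by age, with 28.3 to 52.2 M listed reads each. Old and young livers were compared with limma 3.58.1 (R 4.3.3) on log2(CPM + 1), for mRNAs detected in 2 or more libraries, and p-values were adjusted over all of them (Benjamini-Hochberg). Alternatives were the exact and quasi-likelihood tests of edgeR 4.0.16 and DESeq2 1.42.0 on recovered reads, other pseudocounts, filters and scalings, a mean-variance trend, a replicate block and leaving out each library. Scripts were tested on simulated data with 200 changed genes. All 5 genes with an identifier are described. From the related lists, named genes were MAT2A, AHCYL1, MTR, CTH and up to 3 per list and direction with the smallest p-value under 0.05, a mean of at least 1 CPM and no overlap, besides the 3 mRNAs nearest to SARDH in pattern; 1 gene of this rule is not reported here. The genes and lists were chosen with earlier results of these data known. Symbols came from an Ensembl table. P-values rest on 2 animals per group, with the spread of each gene drawn towards that of all mRNAs tested. Fits that leave out a library have 1 animal in 1 group.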

Additional observations from a re-analysis of the deposited data

How the results depend on the processing

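No mRNA was called in limma under the main setting, and 2 were called among mRNAs with a mean of at least 1 CPM (1 higher, 1 lower), 399 by the exact test of edgeR (345 higher, 54 lower), 880 by DESeq2 (683 higher, 197 lower) and 0 under every other alternative run; the cause was not tested. SARDH was higher in old livers under all 16 alternatives, with log2 fold changes between 1.07 and 2.55 when a library was left out, and was called by the exact test (2.54) and by DESeq2 (2.52). DMGDH and BHMT were lower on average under all 16, though they lay at -0.05 and -0.11 without old replicate 1. MAT1A reversed to 0.17 in both tests of edgeR and to 0.14 in DESeq2, and with 1 library left out it ranged from -1.24 to 0.63. The median of all mRNAs was -0.02 in the main setting, 0.12 in edgeR and 0.10 in DESeq2. With TMM or median-of-ratios factors in limma it was 0.04 and 0.03, and MAT1A stayed at -0.11 and -0.13. AHCY ranged from -0.23 to 0.41 and the median of the 5 genes from -1.24 to 0.41 with 1 library left out. With the replicate number as a block, SARDH kept 1.81 with an adjusted p-value of 0.348, and no mRNA was called. The numbers of the labels name unrelated animals, and the deviations of same-numbered libraries correlated at 0.09 across genes, so they do not pair the livers. Scaling to the hepatocyte markers was added after seeing the data. The 5 genes had at least 241 reads in each library, and each age group had 2 livers.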

Other observations

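PHGDH and PSAT1, both enzymes of serine synthesis, were low in OL1 and near the young livers in OL2. PHGDH, its first enzyme, had 17.6 and 12.3 CPM in YL, 1.54 in OL1 and 15.4 in OL2. PSAT1, the next enzyme, had 45.0 and 54.8 CPM in YL, 6.57 in OL1 and 44.6 in OL2. NNMT, which spends S-adenosylmethionine on nicotinamide, overlapped between the age groups, with 303 and 61.5 CPM in YL and 892 and 158 CPM in OL (log2 fold change 1.45, standard error 1.33, adjusted p = 0.674, limma). PSPH, the last enzyme of serine synthesis, had 0.544 and 0 CPM in YL, 0.114 in OL1 and 0.766 in OL2. These came from 50, 0, 7 and 55 reads, too few to set its pattern beside that of PHGDH and PSAT1. These genes were picked after their values had been seen.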
